A study of Mus musculus with 48 samples.

Results

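The 12 libraries compared here, of 48 in the series, came from sham-operated mice that all carried C3H mitochondria and differed in the nuclear genome. They were chosen by title: 6 libraries of C3Hn:C3Hmt, the wild-type C3H/HeN strain, were set against 6 of C57n:C3Hmt, in which a C57BL/6J nucleus is combined with C3H mitochondria. The series is a study of mitochondrial-nuclear exchange (MNX) mice, which carry the nuclear genome of one inbred strain and the mitochondrial genome of another, under sham surgery or ACF, a surgery not part of the libraries used here. RNA was sequenced from cardiomyocytes isolated on day 3 after surgery by collagenase perfusion, with the right ventricle and the atria removed. All 12 libraries had the treatment label sham. A further 12 sham libraries of the same kind, 6 of C3Hn:C57mt and 6 of C57n:C57mt (wild-type C57BL/6J), share no library with this comparison, and their values are given beside it. The labels do not say how many animals or breeding lines each group drew on, and a p-value here speaks only of the spread between libraries. In this comparison the C3H nucleus is that of an unexchanged strain and the C57 nucleus that of an exchanged one, so nuclear genome and exchange cannot be told apart within the 12 libraries; with C57 mitochondria the arrangement is the opposite.

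Nearly all proteins of a heart muscle cell, most of those in its mitochondria included, are encoded by the nucleus, and the mitochondrial genome encodes a small set of respiratory chain subunits, ribosomal RNAs and transfer RNAs. C57BL/6J and C3H/HeN are long-separated inbred strains that differ at many nuclear sites, in coding and regulatory sequence alike. Cardiomyocytes contract through sarcomeres, draw most of their ATP from fatty acid oxidation, and are excited by sodium, calcium and potassium currents, and genes of all of these functions are described below.

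Total counts were 18.68 to 26.09 M (mega) in the C3Hn:C3Hmt libraries and 20.55 to 23.86 M in those of C57n:C3Hmt. All 10 cardiomyocyte markers, among them Myh6, Tnnt2 and Ryr2, were abundant and 0 were called by edgeR (2 had an unadjusted p under 0.05, and DESeq2 called 1), while 9 of 9 lymphocyte markers had at most 9 counts in any of the 12 libraries. None of 10 endothelial, 9 smooth muscle and pericyte, 2 neutrophil and 1 adipocyte markers tested was called by edgeR (1 of them, of smooth muscle and pericytes, had an unadjusted p under 0.05, and DESeq2 called 1 of that list). Over all genes tested edgeR called 19.4%, a share at which short lists can hold 0 calls. One library stood apart: replicate 23 of C3Hn:C3Hmt had a summed fibroblast marker level of 1307 CPM (counts scaled to library size), against 421 to 689.6 CPM in the other C3Hn:C3Hmt libraries and 362 to 619 CPM in C57n:C3Hmt, and a summed macrophage marker level of 215 CPM, against 61.1 to 94.9 CPM and 60.3 to 95.2 CPM. In bulk RNA, fewer cells of a type and less RNA per cell cannot be told apart. The titles also carry a code of L and a digit whose meaning is not stated: it was L3 in all 6 C3Hn:C3Hmt libraries, L2 in 4 of C57n:C3Hmt and L8 in the other 2. It is nested in the groups compared, and an alternative with this code as a covariate is given for some of the results below. A result given without that alternative did not always keep its call: 1007 of the 2599 calls were kept in the same direction. In that fit, L3 against L2 is estimated within C3Hn:C57mt, which holds both codes. L8 against L2 is estimated within C57n:C3Hmt, one of the groups compared. In the 24 libraries whose titles name a surgery, the labels of exchanged mice name one nucleus and the titles begin with the other strain, and those libraries are used below as an alternative only.

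**Figure D1:**
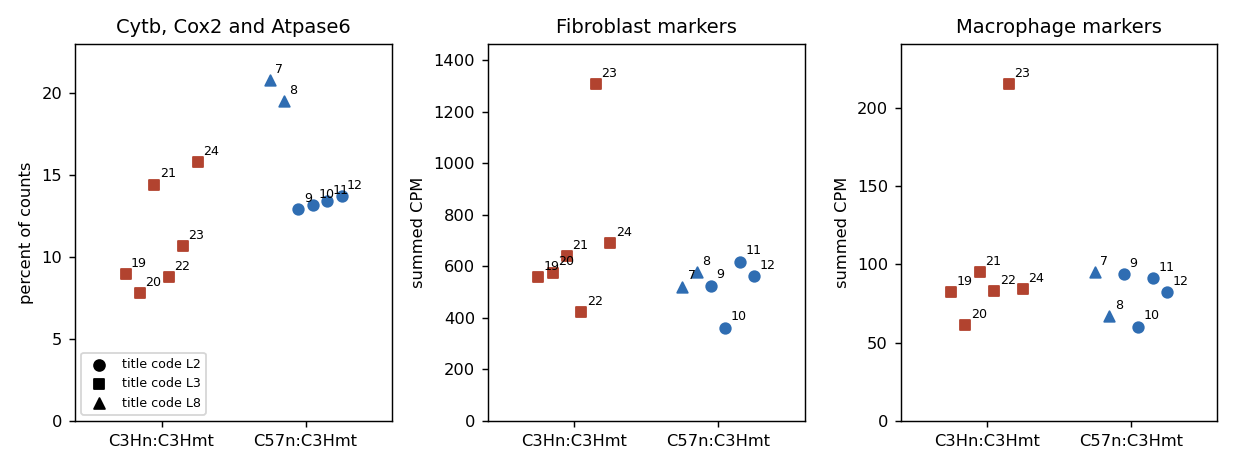
Each point is 1 library, numbered by its replicate, with C3Hn:C3Hmt on the left and C57n:C3Hmt on the right of each panel, and the symbol gives the L code of the title. The left panel shows the share of all counts taken by Cytb, Cox2 and Atpase6 in percent, and the other panels show the summed level of the tested fibroblast and macrophage markers in CPM. C3Hn:C3Hmt replicate 23 is highest in both marker panels, and the libraries of C57n:C3Hmt with code L8, replicates 7 and 8, are highest in the left panel.

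With C3H mitochondria in every library, the nuclear genome went with a difference in 2599 of 13395 genes tested (19.4%), by edgeR's quasi-likelihood test at an adjusted p under 0.05. Of these, 1423 genes (10.6% of those tested) were higher and 1176 (8.78%) were lower in C3Hn:C3Hmt than in C57n:C3Hmt. Many differences were small: 1157 of the called genes (44.5%) differed by less than 1.5-fold, 774 by at least 2-fold and 282 by at least 4-fold. Of the 282, 171 were higher and 111 lower. The median absolute log2 fold change of the called genes was 0.65. The median log2 fold change over all genes tested was 0.024. In 1500 genes (11.2%) the 6 libraries of one group all lay above the 6 of the other, 778 (5.81%) with C3Hn:C3Hmt above and 722 (5.39%) with it below, and 1450 of the 1500 were called. The split between higher and lower calls moved with the scaling. It was 54.8% higher as reported, 49.7% to 50.6% higher with DESeq2, with its size factors or without the mitochondrial transcripts, and 42.0% without the L8 libraries. With the L code as a covariate 1191 genes were called, of which 1007 were shared with the 2599 in the same direction.

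**Figure D2:**
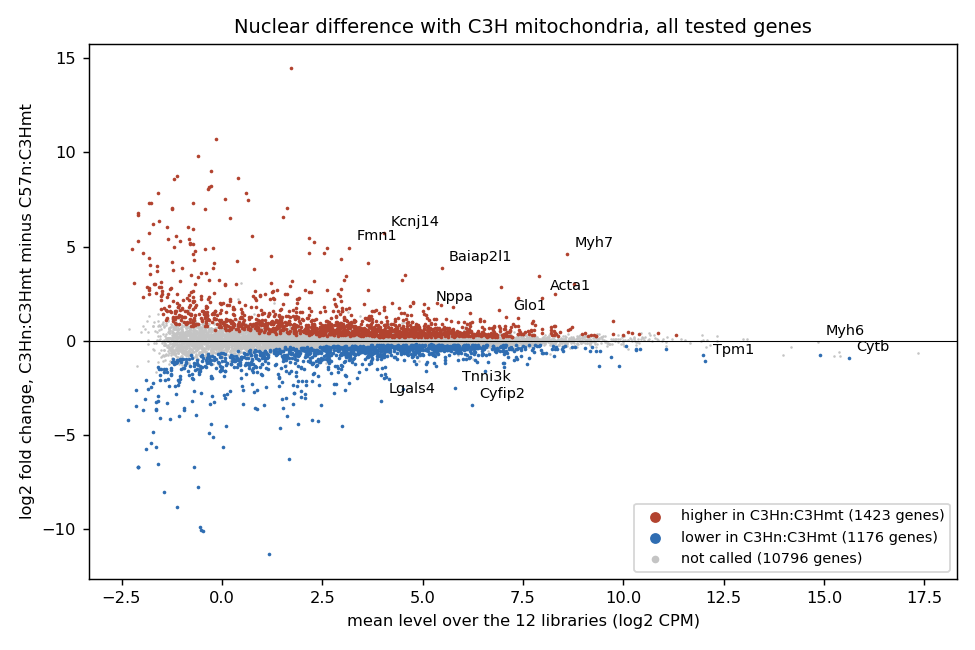
Each point is 1 of the 13395 genes tested, by its mean level over the 12 libraries (log2 CPM, x axis) and its log2 fold change, C3Hn:C3Hmt minus C57n:C3Hmt (y axis). The 1423 genes called higher are in red, the 1176 called lower in blue and the others in grey. Large differences occur at every level up to that of Myh7 and Tpm1, while Myh6 lies near 0.

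The largest increases among well-measured genes were in a potassium channel, a formin and contractile genes. The naming rule took the 12 genes with the largest log2 fold change in each direction among called genes whose groups did not overlap and whose log2 CPM averaged 3 or more. Values below are the lowest, median and highest library of a group in CPM, followed by the log2 fold change with its standard error (SE). Kcnj14, which encodes the inward rectifier potassium channel Kir2.4, had 97.8, 121 and 129 CPM in C3Hn:C3Hmt and 1.90, 2.25 and 2.46 CPM in C57n:C3Hmt, a log2 fold change of 5.72 ± 0.143 SE or 52.8-fold (adjusted p = 3.2e-20). The 2 groups of Kcnj14 values were far apart, and each was tight. Fmn1, an actin-nucleating formin, had 45.3, 50.9 and 53.0 CPM in C3Hn:C3Hmt and 0.951, 1.59 and 2.16 CPM in C57n:C3Hmt (4.94 ± 0.151 SE, adjusted p = 1.04e-18). Baiap2l1, an adaptor that links the membrane to actin, had 143, 169.9 and 188 CPM in C3Hn:C3Hmt and 10.3, 11.9 and 12.8 CPM in C57n:C3Hmt (3.84 ± 0.0995 SE, adjusted p = 3.75e-20). The receptor tyrosine kinase gene Ephb1, the membrane serine protease gene Tmprss13 and Adamts13, whose protein cleaves von Willebrand factor, were 11.0, 9.45 and 9.40-fold higher in C3Hn:C3Hmt. Wdr92 was 7.17-fold higher, Wdfy1, an endosomal adaptor of toll-like receptor signalling, 6.39-fold, and Chm, which encodes Rab escort protein 1, 4.09-fold. The remaining 3 of the 12, Myh7, Myl1 and Acta1, are contractile genes. All 24 genes with the largest changes, higher and lower, were called in every one of the 21 alternatives that used these libraries, the L code as a covariate included. The naming rule took them from the same libraries as called genes, so these refits are not separate evidence.

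**Figure D3:**
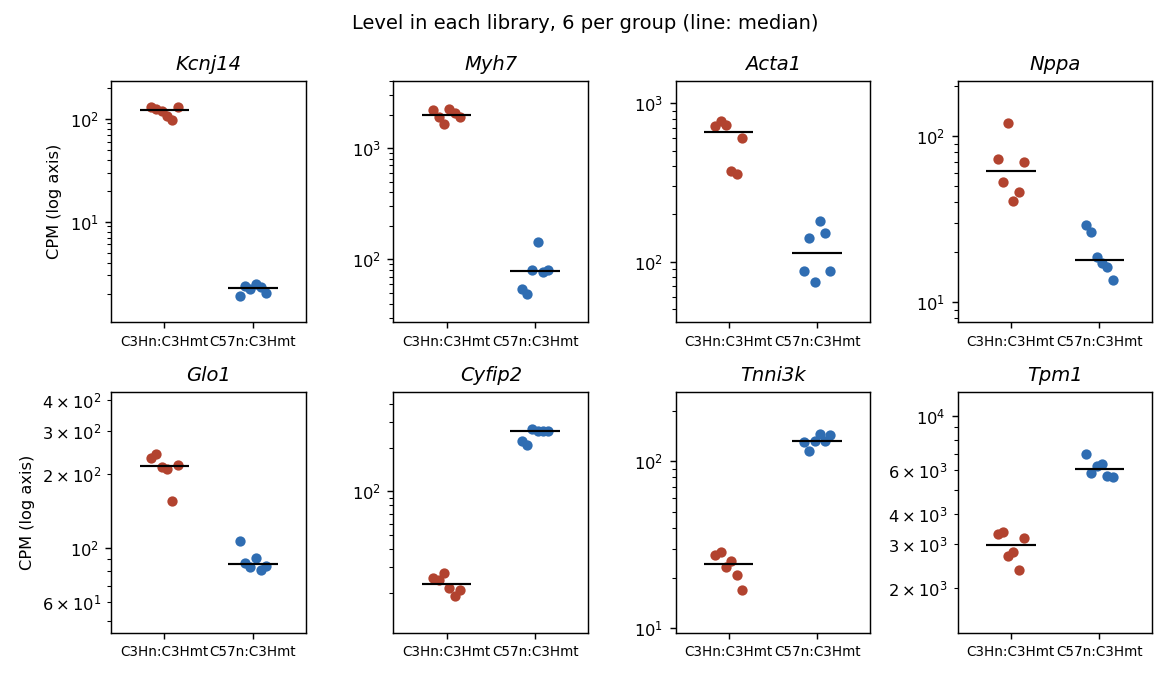
Each panel shows 1 gene, with CPM on a log axis, a point per library and a line at the group median. The 6 C3Hn:C3Hmt libraries are in red on the left and the 6 C57n:C3Hmt libraries in blue on the right. In none of the 8 genes do the groups overlap: Kcnj14, Myh7, Acta1, Nppa and Glo1 are higher in C3Hn:C3Hmt, and Cyfip2, Tnni3k and Tpm1 are lower.

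Contractile and fetal cardiac genes differed between the nuclei, with Myh7 foremost. Adult mouse ventricle runs mainly on the fast α-myosin heavy chain gene Myh6, while the slow β-myosin gene Myh7, the skeletal α-actin gene Acta1 and the atrial natriuretic peptide gene Nppa are high in the fetal ventricle and return under load. Myh7 had 1635, 1979 and 2226 CPM in C3Hn:C3Hmt and 49.1, 78.6 and 143 CPM in C57n:C3Hmt, 24.6-fold higher in C3Hn:C3Hmt (log2 fold change 4.62 ± 0.218 SE, adjusted p = 6.14e-15). All C3Hn:C3Hmt libraries were at least an order of magnitude above the C57n:C3Hmt libraries in Myh7. Myh6, its neighbour in the genome, had 23874, 28503 and 35554 CPM in C3Hn:C3Hmt and 23322, 33198 and 36647 CPM in C57n:C3Hmt (-0.069 ± 0.146 SE, adjusted p = 0.803), and its groups overlapped. Acta1 had 356, 660.0 and 768 CPM in C3Hn:C3Hmt and 74.7, 114 and 180.1 CPM in C57n:C3Hmt, 4.92-fold higher (2.30 ± 0.314 SE, adjusted p = 3.17e-06). Nppa had 40.8, 61.7 and 119 CPM in C3Hn:C3Hmt and 13.7, 18.1 and 29.3 CPM in C57n:C3Hmt, 3.32-fold higher (1.73 ± 0.319 SE, adjusted p = 0.000202). Neither gene's groups overlapped. Nppb, the gene of the brain natriuretic peptide, did not pass the test, with 163, 191 and 242 CPM in C3Hn:C3Hmt and 119.8, 184 and 251 CPM in C57n:C3Hmt (0.073 ± 0.216 SE, adjusted p = 0.862). The skeletal fast myosin light chain gene Myl1 was 11.1-fold higher (59.6, 78.1 and 101 CPM in C3Hn:C3Hmt and 5.65, 7.13 and 8.84 CPM in C57n:C3Hmt).

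Of 19 tested cardiac stress and fetal genes, 9 were higher (47.4%, against 10.6% of all genes) and 0 lower, with a median log2 fold change of 0.68. Besides Myh7, Acta1 and Nppa these were Ankrd1, a load-responsive Z-disc repressor protein (1.04 ± 0.226 SE, adjusted p = 0.00128), the cell cycle inhibitor Cdkn1a (1.18 ± 0.320 SE, adjusted p = 0.00903), the LIM protein Fhl1 (0.76 ± 0.0975 SE, adjusted p = 1.06e-06), the calcineurin regulator Rcan1 (0.68 ± 0.183 SE, adjusted p = 0.00879), the TWEAK receptor Tnfrsf12a (0.65 ± 0.161 SE, adjusted p = 0.00416) and the lipocalin Lcn2. The Lcn2 call was lost without C3Hn:C3Hmt replicate 23 (adjusted p = 0.0995), without the L8 libraries (0.0956) and with the L code as a covariate (0.102). With the L code as a covariate 6 of the 19 were higher, and with C57 mitochondria 8 were. Within the sarcomere and Z-disc list, 5 of 33 members were higher (15.2%, against 10.6% of all genes) and 4 lower (12.1%, against 8.78%), with a median of 0.096. The number higher was 3 without C3Hn:C3Hmt replicate 19 and up to 7 without another library. The lower ones were the α-tropomyosin gene Tpm1, with 2356, 2983 and 3359 CPM in C3Hn:C3Hmt and 5641, 6051 and 6962 CPM in C57n:C3Hmt (-1.06 ± 0.176 SE, adjusted p = 5.52e-05), the M-band genes Myom1 (-0.50 ± 0.104 SE, adjusted p = 0.000673) and Myom2 (-0.87 ± 0.190 SE, adjusted p = 0.00129), and the cardiac myosin light chain kinase gene Mylk3 (-0.35 ± 0.106 SE, adjusted p = 0.0188). No library of one group reached the other in Tpm1, Myom1 and Myom2.

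Nppa is also an atrial marker. Of 4 tested atrial markers, Nppa and Myl4 were higher and Myl7 and Dkk3 were not called, while Sln and Bmp10 were too low to be tested. Sln, which encodes sarcolipin, had 0 to 60 counts in C3Hn:C3Hmt and 0 to 8 in C57n:C3Hmt, Bmp10, a gene of the right atrium, had 0 or 1 in every one of the 12 libraries, and Myl7 had 22 to 296 counts in C3Hn:C3Hmt and 11 to 34 in C57n:C3Hmt. The summed level of the tested atrial markers was 44.9 to 126 CPM in C3Hn:C3Hmt and 16.8 to 36.2 CPM in C57n:C3Hmt, most of it Nppa. Without Nppa the sum was 4.06, 6.70 and 37.3 CPM (lowest, median and highest) in C3Hn:C3Hmt, the highest in replicate 19, and 1.94, 3.24 and 6.88 CPM in C57n:C3Hmt, and the groups overlapped. Myl4 rested on 1 library, C3Hn:C3Hmt replicate 19: it had 1.98, 3.58 and 22.5 CPM in C3Hn:C3Hmt and 0.785, 1.06 and 2.85 CPM in C57n:C3Hmt, and without that library its log2 fold change was 1.25 (adjusted p = 0.142), against 2.26 ± 0.664 SE with it (adjusted p = 0.0156). Without the same library Nppa stayed higher, by 1.71 on the log2 scale (adjusted p = 0.00051), and Myh7 by 4.59. The part of atrial cells in the Nppa difference was not tested further.

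The promoters of the fetal and skeletal genes that were higher together are shown because serum response factor (through the CArG box) and TEAD factors (through the M-CAT core CATTCC) are known to act on such genes. The windows are RefSeq sequence of the build GRCm38.p6, a C57BL/6J genome, from 250 bases before to 50 after the transcript start, and the C3H sequence is not analysed here. They lie at chr14:54994577-54994876 for Myh7 (minus strand, 1 of 2 windows listed), chr8:123894726-123895025 for Acta1 (minus strand), chr4:148000472-148000771 for Nppa (plus strand) and chr1:66945007-66945306 for Myl1 (minus strand). Capitals mark matches to CATTCC on either strand and to the CArG box; matches of the 2 motifs do not overlap.
Myh7: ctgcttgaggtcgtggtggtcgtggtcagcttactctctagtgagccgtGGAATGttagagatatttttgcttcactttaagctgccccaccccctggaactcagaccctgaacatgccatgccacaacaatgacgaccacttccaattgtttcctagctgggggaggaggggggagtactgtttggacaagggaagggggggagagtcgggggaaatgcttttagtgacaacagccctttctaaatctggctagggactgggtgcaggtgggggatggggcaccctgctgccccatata
Acta1: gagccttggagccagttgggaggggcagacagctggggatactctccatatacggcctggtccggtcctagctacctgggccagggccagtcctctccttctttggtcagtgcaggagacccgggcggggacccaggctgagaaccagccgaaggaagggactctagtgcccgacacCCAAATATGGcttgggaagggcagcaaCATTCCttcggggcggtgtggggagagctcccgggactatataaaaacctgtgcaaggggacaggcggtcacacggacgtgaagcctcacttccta
Nppa: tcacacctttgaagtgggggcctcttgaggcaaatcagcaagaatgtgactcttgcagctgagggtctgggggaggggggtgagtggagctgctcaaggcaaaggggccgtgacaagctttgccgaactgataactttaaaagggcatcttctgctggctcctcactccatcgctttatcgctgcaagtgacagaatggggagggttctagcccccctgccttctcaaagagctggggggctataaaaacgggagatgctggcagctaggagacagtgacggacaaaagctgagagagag
Myl1: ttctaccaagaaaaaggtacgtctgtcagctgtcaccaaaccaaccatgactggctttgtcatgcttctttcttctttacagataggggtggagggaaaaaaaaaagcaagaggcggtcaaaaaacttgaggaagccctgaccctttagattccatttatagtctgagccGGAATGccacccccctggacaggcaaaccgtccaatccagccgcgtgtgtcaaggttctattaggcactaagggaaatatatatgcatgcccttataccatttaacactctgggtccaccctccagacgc
The M-CAT core was found once each in the windows of Myh7, Acta1 and Myl1 and not in that of Nppa, and 14.7% of all 32851 windows hold it. A CArG box was found in the Acta1 window only, and 1.63% of all windows hold one. These matches are letters in a reference sequence and say nothing of binding in these cells.

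The largest decreases were in a cytoskeletal regulator, a lectin, a cytokine and a cardiac kinase. Cyfip2, a subunit of the WAVE complex that drives actin branching, had 19.0, 23.0 and 27.4 CPM in C3Hn:C3Hmt and 209, 260.4 and 270.3 CPM in C57n:C3Hmt, 10.7-fold lower in C3Hn:C3Hmt (log2 fold change -3.42 ± 0.146 SE, adjusted p = 7.42e-16). Lgals4, a galectin, had 3.83, 5.68 and 6.40 CPM in C3Hn:C3Hmt and 32.1, 49.6 and 66.1 CPM in C57n:C3Hmt (-3.17 ± 0.227 SE, adjusted p = 3e-11). The groups of both genes lay well apart. Tnni3k, a heart-specific kinase that binds cardiac troponin I, had 16.9, 24.3 and 28.6 CPM in C3Hn:C3Hmt and 116, 133 and 145 CPM in C57n:C3Hmt (-2.49 ± 0.106 SE, adjusted p = 7.14e-16). The cytokine gene Il15 had 2.91, 3.40 and 3.79 CPM in C3Hn:C3Hmt and 18.7, 19.5 and 24.4 CPM in C57n:C3Hmt (-2.61 ± 0.123 SE, adjusted p = 5.74e-15), and all its C57n:C3Hmt libraries were at least several-fold above every C3Hn:C3Hmt library. Emilin2, a matrix glycoprotein gene, was 5.94-fold lower, and Art4, an ADP-ribosyltransferase gene, 4.63-fold lower. Nedd1, which recruits the γ-tubulin ring complex, Lgr6, a receptor of R-spondins, and Hspa12a, a distant member of the heat shock protein family, were 4.01, 3.96 and 3.86-fold lower. Pkd2l2 and Tmem150c were 3.64 and 3.48-fold lower. Mgst1, a microsomal glutathione transferase gene, had 6.47, 8.50 and 9.94 CPM in C3Hn:C3Hmt and 24.7, 28.5 and 33.6 CPM in C57n:C3Hmt (-1.79 ± 0.193 SE, adjusted p = 6.16e-08).

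Of 26 potassium channel genes tested, 4 were higher (15.4%, against 10.6% of all genes) and 5 lower (19.2%, against 8.78%). Apart from Kcnj14, the higher ones were Kcne1, the β-subunit of the slow delayed rectifier (3.91, 5.52 and 7.28 CPM in C3Hn:C3Hmt and 1.67, 2.17 and 3.36 CPM in C57n:C3Hmt; 1.25 ± 0.204 SE, adjusted p = 4.31e-05), the pacemaker channel gene Hcn4 (1.09 ± 0.299 SE, adjusted p = 0.00967) and the stretch-gated Kcnk2 (1.10 ± 0.237 SE, adjusted p = 0.00119). Kcnj11, the pore of the ATP-sensitive potassium channel, had 71.1, 86.6 and 97.7 CPM in C3Hn:C3Hmt and 169.8, 191 and 211 CPM in C57n:C3Hmt and was 2.24-fold lower (-1.17 ± 0.0789 SE, adjusted p = 1.13e-11), with a clear gap between the groups. The small-conductance calcium-activated channel gene Kcnn2 fell by 0.93 on the log2 scale (adjusted p = 1.96e-06), the inward rectifier gene Kcnj12 by 0.50 (adjusted p = 0.000832) and Kcnj5, of the acetylcholine-gated channel, by 0.39 (adjusted p = 0.0206). Kcna4 was lower as well, with under 2 CPM in any library (-1.15 ± 0.340 SE, adjusted p = 0.016 by edgeR). Its call held in 11 of 12 fits that left out 1 library and was lost without the L8 libraries (adjusted p = 0.0646). With the L code as a covariate, 6 potassium channel genes were higher and 1 lower. The lower one was Kcnj11 (-1.22, adjusted p = 2.51e-06 by edgeR), so Kcnn2, Kcnj12, Kcnj5 and Kcna4 were not called lower there.

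Among 30 genes of calcium handling and of calcium and sodium channels, 4 were higher (13.3%) and 3 lower (10%), near the 10.6% and 8.78% of all genes. Cacna1h, the T-type calcium channel gene, had 0.358, 0.455 and 0.707 CPM in C3Hn:C3Hmt and 4.32, 5.97 and 7.75 CPM in C57n:C3Hmt (-3.61 ± 0.298 SE, adjusted p = 4.58e-10), and its call was lost with the L code as a covariate (adjusted p = 0.155). Casq1, the skeletal form of the sarcoplasmic calcium buffer calsequestrin, was higher, with 12.5, 15.7 and 21.6 CPM in C3Hn:C3Hmt and 3.43, 3.67 and 4.08 CPM in C57n:C3Hmt (2.11 ± 0.196 SE, adjusted p = 4.34e-09). The junctional protein gene Asph was 1.34-fold higher and Fxyd1, which encodes phospholemman, 1.30-fold. The main genes of the calcium cycle, Atp2a2, Ryr2, Pln, Slc8a1 and Cacna1c, were not called.

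**Figure D4:**
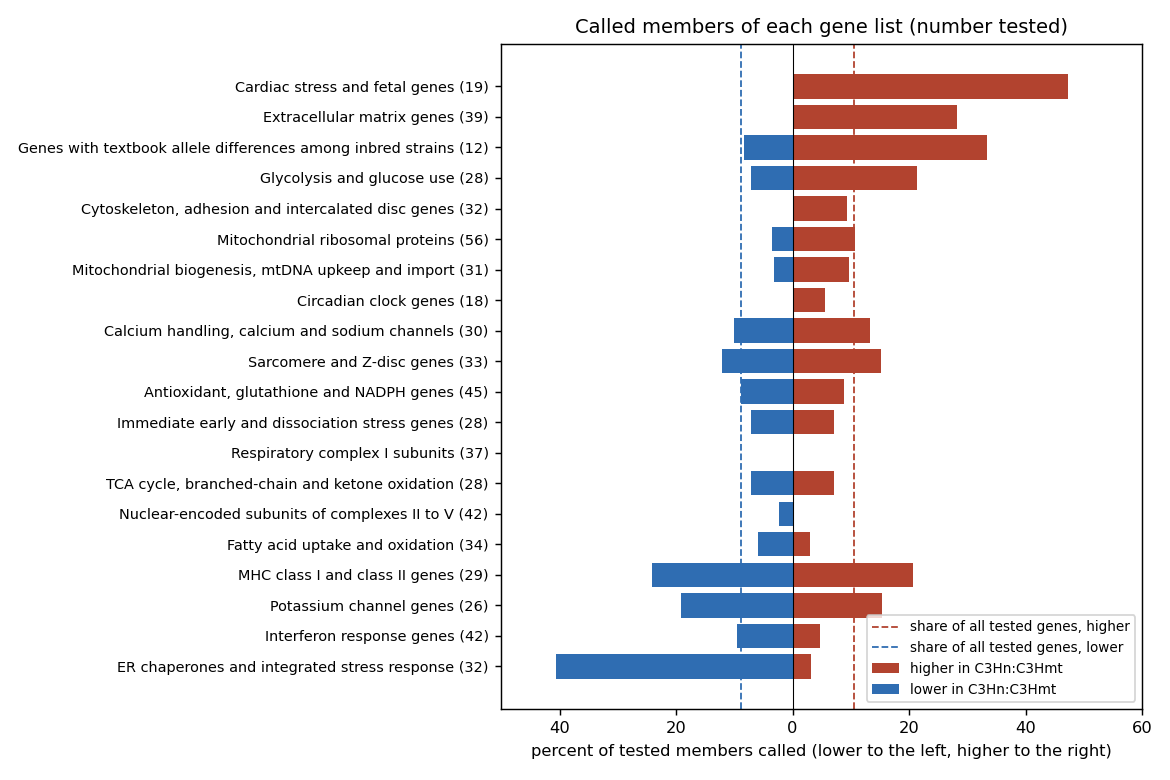
Bars give the percent of tested members of each gene list that were called, higher in C3Hn:C3Hmt to the right in red and lower to the left in blue, with the number tested in brackets. Dashed lines mark the same shares over all genes tested, 10.6% higher and 8.78% lower. Stress and fetal genes (47.4% higher) and ER chaperones (40.6% lower) lie farthest out, and the respiratory chain lists lie near 0.

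Few nuclear genes of the respiratory chain were called, against 19.4% of all genes. None of 37 complex I subunits was called by edgeR or DESeq2 (2 had an unadjusted p under 0.05 by edgeR), and their median log2 fold change was 0.098. Of 42 subunits of complexes II to V, 1 was called and 4 had an unadjusted p under 0.05 by edgeR. The called one was Sdha (-0.45 ± 0.124 SE, adjusted p = 0.00988). With the L code as a covariate Sdha was not called (-0.64, adjusted p = 0.0891). For the complex I list, leaving out 1 library in turn gave at most 1 call, and the fit of the 12 libraries alone gave 2. Mitochondrially encoded Cytb, of complex III, was lower, with 23462, 31509 and 62928 CPM in C3Hn:C3Hmt and 55174, 57536 and 116277 CPM in C57n:C3Hmt (-0.92 ± 0.303 SE, adjusted p = 0.0313), and its groups overlapped. Cox2 had 22825, 28719 and 57689.9 CPM in C3Hn:C3Hmt and 42068, 47372 and 101253 CPM in C57n:C3Hmt (-0.79 ± 0.293 SE, adjusted p = 0.059), and Atpase6 had 22574, 29480.4 and 59589 CPM in C3Hn:C3Hmt and 38456, 41593 and 95302 CPM in C57n:C3Hmt (-0.60 ± 0.319 SE, adjusted p = 0.211). The 3 transcripts together took 7.78% to 15.8% of counts in C3Hn:C3Hmt (median 9.80%) and 12.9% to 20.8% in C57n:C3Hmt (median 13.6%), with the highest shares, 20.8% and 19.5%, in the libraries with code L8. With the L code as a covariate the Cytb difference was -0.11 (adjusted p = 0.938). Without the L8 libraries it was -0.61 (adjusted p = 0.173), and it was called in 6 of 12 fits that left out 1 library: it was lost without C3Hn:C3Hmt replicates 19, 20, 22 and 23 and C57n:C3Hmt replicates 7 and 8, with adjusted p up to 0.0903. Nuclear copies of mitochondrial genes can share reads with these transcripts.

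Of 56 mitochondrial ribosomal protein genes, 6 were higher (10.7%, close to the 10.6% of all genes) and 2 lower (3.57%, against 8.78%). The lower pair, Mrpl35 (-0.63 ± 0.0961 SE, adjusted p = 1.72e-05) and Mrpl3 (-0.45 ± 0.120 SE, adjusted p = 0.00808), held in every fit that left out 1 library, while the count of higher ones ran from 1 to 9, was 3 or fewer in 10 of the 12 such fits, and was 0 with the L code as a covariate. In the list of mitochondrial biogenesis and upkeep, 3 of 31 were higher (9.68%, against 10.6% of all genes) and 1 lower (3.23%, against 8.78%); 2 were lower without C3Hn:C3Hmt replicate 19 or C57n:C3Hmt replicate 8. Park2, the gene of the ubiquitin ligase parkin, which marks damaged mitochondria, had 11.7, 15.1 and 17.2 CPM in C3Hn:C3Hmt and 5.01, 5.97 and 6.17 CPM in C57n:C3Hmt, 2.63-fold higher (1.39 ± 0.105 SE, adjusted p = 7.8e-11), without overlap. Tfam, which packages mitochondrial DNA, was higher by 0.30 ± 0.0796 SE (adjusted p = 0.00659), and the fusion gene Mfn1 was lower by 0.26 (adjusted p = 0.0179). Both calls were lost with the L code as a covariate by edgeR, with Tfam at 0.35 (adjusted p = 0.169) and Mfn1 at -0.28 (adjusted p = 0.283). Tfb1m, a methyltransferase of mitochondrial ribosomal RNA, was also called (0.36 ± 0.108 SE). Its call was lost without C3Hn:C3Hmt replicate 19 or 20 (adjusted p up to 0.0561 by edgeR). It was lost as well without the L8 libraries (0.27, adjusted p = 0.126) and with the L code as a covariate (0.22, adjusted p = 0.587).

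Fuel genes were called in both directions. Among 34 genes of fatty acid uptake and oxidation, 1 was higher (2.94%, against 10.6% of all genes) and 2 lower (5.88%, against 8.78%). With the L code as a covariate 0 were higher and 4 lower. The number higher was 5 without C3Hn:C3Hmt replicate 23, 3 without replicate 24, and 0 in 8 of 12 fits that left out 1 library. The higher one, Pdk4, a kinase gene that restrains pyruvate oxidation (0.63 ± 0.215 SE, adjusted p = 0.0397), was called in 4 of 12 fits that left out 1 library (adjusted p up to 0.0954). Acot1, a cytosolic acyl-CoA thioesterase gene, had 3.16, 4.96 and 6.68 CPM in C3Hn:C3Hmt and 9.57, 12.0 and 15.7 CPM in C57n:C3Hmt (-1.30 ± 0.170 SE, adjusted p = 1.67e-06), and its groups did not overlap. Lpl, which releases fatty acids from lipoproteins, had 2394, 2908 and 4666 CPM in C3Hn:C3Hmt and 3867, 5887 and 6855 CPM in C57n:C3Hmt (-0.74 ± 0.163 SE, adjusted p = 0.00146). Of 28 genes of glycolysis and glucose use, 6 were higher (21.4%, against 10.6% of all genes) and 2 lower (7.14%, against 8.78%). The number higher was 3 without C3Hn:C3Hmt replicate 19 or 20 or C57n:C3Hmt replicate 11, and at most 8 when another single library was left out. Hexokinase gene Hk1 had 192, 235 and 273 CPM in C3Hn:C3Hmt and 155, 164 and 178 CPM in C57n:C3Hmt (0.51 ± 0.0884 SE, adjusted p = 9.65e-05), the muscle genes Pgam2 and Eno3 were 1.47 and 1.36-fold higher, and Gapdh, Pgam1 and Ldha made up the rest. The non-muscle enolase gene Eno1 was lower, with 50.7, 64.8 and 76.5 CPM in C3Hn:C3Hmt and 102, 104 and 117 CPM in C57n:C3Hmt (-0.74 ± 0.107 SE, adjusted p = 6.28e-06), and so was the glucose transporter gene Slc2a1 (by 0.53 on the log2 scale, adjusted p = 0.00746). With the L code as a covariate 1 glycolytic gene was higher and 1 lower. In that fit edgeR called Eno1 (-0.79, adjusted p = 0.0131). It did not call Hk1 (0.53, adjusted p = 0.0547), Pgam2 (0.53, adjusted p = 0.29) or Slc2a1 (-0.68, adjusted p = 0.111). With C57 mitochondria 16 glycolytic genes were higher and 1 lower. In the list of the citric acid cycle and of branched-chain and ketone oxidation, 2 of 28 were higher and 2 lower (7.14% each, against 10.6% and 8.78% of all genes); 5 were higher without C3Hn:C3Hmt replicate 23 and 0 with the L code as a covariate. Bdh1, a ketone body dehydrogenase gene (1.89-fold, adjusted p = 4.06e-05), and the branched-chain aminotransferase gene Bcat2 (1.74-fold, adjusted p = 0.000441) were higher, and Mccc1, of leucine breakdown, was 1.78-fold lower (adjusted p = 8.56e-05). The citric acid cycle gene Idh2 was called lower in 2 of 12 fits that left out 1 library. The calls of Bdh1 and Bcat2 were lost with that covariate.

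Antioxidant genes were called at about the share of all genes, 4 of 45 higher and 4 lower (8.89% each, against 10.6% and 8.78%). With the L code as a covariate 2 were higher, Glo1 and Glrx, and 4 were lower. Glo1, which detoxifies methylglyoxal and is known for copy number differences among mouse strains, had 155, 215 and 240.0 CPM in C3Hn:C3Hmt and 80.8, 85.4 and 106 CPM in C57n:C3Hmt, 2.38-fold higher (1.25 ± 0.102 SE, adjusted p = 3.72e-10). Its groups did not overlap. Of its tested neighbours in gene order, edgeR called Dnahc8 higher, by 3.39 ± 0.415 SE on the log2 scale (adjusted p = 5.32e-07). Also called higher were Rsph1 (1.23 ± 0.3865 SE, adjusted p = 0.0249), Mdga1 (0.60 ± 0.126 SE, adjusted p = 0.000804) and Btbd9 (0.41 ± 0.0971 SE, adjusted p = 0.00257). Zfand3 (0.16 ± 0.0622 SE, adjusted p = 0.0769) and Abcg1 (0.0031 ± 0.227 SE, adjusted p = 0.996) were not called. Glrx, glutaredoxin, was 2.01-fold higher (27.4, 38.8 and 46.0 CPM in C3Hn:C3Hmt and 16.0, 17.7 and 23.6 CPM in C57n:C3Hmt), and Gpx3 and Prdx6 were higher by 0.48 ± 0.148 SE and 0.36 ± 0.124 SE on the log2 scale. Beside Mgst1, the lower genes were Gstt1, Me1 and Gsta1, the last with 0, 0.381 and 0.749 CPM in C3Hn:C3Hmt and 1.56, 2.98 and 4.75 CPM in C57n:C3Hmt; Gsta1 has near-identical relatives that can share its reads. Nnt, the mitochondrial transhydrogenase gene that carries a multi-exon deletion in C57BL/6J, had 437, 582 and 708.56 CPM in C3Hn:C3Hmt and 496, 524 and 589 CPM in C57n:C3Hmt at the gene level (0.091 ± 0.110 SE, adjusted p = 0.633), and its groups overlapped. With C57 mitochondria its log2 fold change was 0.53 (adjusted p = 0.00054); the difference between the 2 values did not pass the test (unadjusted p = 0.00878, adjusted p = 0.158).

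Many chaperone genes of the endoplasmic reticulum (ER) were lower. Of 32 tested genes of ER folding and the integrated stress response, 13 were lower (40.6%, against 8.78% of all genes) 1 higher and 18 not called, with a median log2 fold change of -0.26; with the L code as a covariate 2 were lower. The master chaperone gene Hspa5 had 481, 556 and 746 CPM in C3Hn:C3Hmt and 694, 826 and 966 CPM in C57n:C3Hmt (-0.52 ± 0.117 SE, adjusted p = 0.00181). Pdia6, a disulfide isomerase gene, had 48.1, 54.8 and 76.6 CPM in C3Hn:C3Hmt and 81.2, 94.3 and 104 CPM in C57n:C3Hmt (-0.64 ± 0.0985 SE, adjusted p = 1.66e-05). Its call was lost with the L code as a covariate by edgeR (-0.53, adjusted p = 0.0723). Xbp1, the transcription factor of the unfolded protein response, had 15.9, 17.6 and 20.4 CPM in C3Hn:C3Hmt and 25.5, 26.01 and 32.4 CPM in C57n:C3Hmt (-0.58 ± 0.103 SE, adjusted p = 0.00012). Groups overlapped in Hspa5 and not in Pdia6 or Xbp1. The other lower members were Hsp90b1, Calr, Pdia3, Pdia4, Dnajb9, Dnajb11, Sdf2l1, Manf, Hyou1 and Mthfd2, each by less than 1 on the log2 scale; the Mthfd2 call held in 5 of 12 fits that left out 1 library. The transcription factors of the other stress branch, Atf4 (0.17 ± 0.0856 SE, adjusted p = 0.177) and Ddit3 (0.26 ± 0.140 SE, adjusted p = 0.223), were not called, and Aldh18a1, of proline synthesis, was higher (0.59 ± 0.111 SE, adjusted p = 0.000281). The number lower was 10 to 16 when 1 library was left out and 17 with C57 mitochondria.

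Antigen presentation genes differed in both directions. Of 29 tested genes of the major histocompatibility complex (MHC) and its pathway, 6 were higher (20.7%, against 10.6% of all genes) and 7 lower (24.1%, against 8.78%). With the L code as a covariate 3 were higher and 9 lower. With the filter at a mean log2 CPM of at least 1 the counts were 2 and 5. The lower ones were led by class II genes: H2-Eb1 had 1.04, 1.43 and 3.00 CPM in C3Hn:C3Hmt and 7.53, 11.3 and 14.8 CPM in C57n:C3Hmt (-2.82 ± 0.444 SE, adjusted p = 2.55e-05), H2-Ab1 had 0.799, 1.18 and 2.35 CPM in C3Hn:C3Hmt and 6.22, 9.65 and 10.7 CPM in C57n:C3Hmt (-2.77 ± 0.493 SE, adjusted p = 0.000131) and H2-Aa had 1.79, 2.18 and 3.99 CPM in C3Hn:C3Hmt and 8.74, 12.3 and 14.9 CPM in C57n:C3Hmt (-2.34 ± 0.419 SE, adjusted p = 0.000144). The groups were apart in each. Cd74, the class II invariant chain, which lies outside the MHC, was 3.35-fold lower (6.70, 8.33 and 16.3 CPM in C3Hn:C3Hmt and 24.6, 30.7 and 41.0 CPM in C57n:C3Hmt; adjusted p = 0.00281), and the peptide loading genes H2-DMa and H2-DMb1 were 3.13 and 3.52-fold lower. Macrophages, dendritic cells and B cells are the usual source of class II. Of 10 macrophage markers, 1 was higher (10%, near the 10.6% of all genes) and 0 lower. It was Cd68 (1.46 ± 0.320 SE, adjusted p = 0.0013 by edgeR), a call lost with the L code as a covariate. The part of cell number in the class II values was not tested. H2-Ea-ps had 4 to 26 counts in every C3Hn:C3Hmt library and 0 in every C57n:C3Hmt library. It was called by edgeR (adjusted p = 0.0025), but not with the L code as a covariate (log2 fold change 4.38, adjusted p = 0.158). C57BL/6 mice carry a promoter deletion in H2-Ea. The class I genes H2-Q1, with 1.07, 1.81 and 2.80 CPM in C3Hn:C3Hmt and 0, 0.0464 and 0.0897 CPM in C57n:C3Hmt, and H2-Q2, with 0.645, 1.43 and 2.72 CPM in C3Hn:C3Hmt and 0, 0 and 0.0732 CPM in C57n:C3Hmt, were at or near 0 in C57n:C3Hmt, and H2-T24 and the transporter gene Tap2 were 2.91 and 1.66-fold higher. Class I and class II genes are highly polymorphic and alike, the counts were made on a C57BL/6J-derived build, and the part of mismatched or shared reads in these values was not tested.

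Interferon response genes gave 2 higher (4.76%, against 10.6% of all genes) and 4 lower (9.52%, against 8.78%) of 42 tested. Rsad2, which encodes the antiviral protein viperin, had 1.82, 2.35 and 4.36 CPM in C3Hn:C3Hmt and 4.92, 9.23 and 13.2 CPM in C57n:C3Hmt (-1.73 ± 0.264 SE, adjusted p = 1.64e-05). Ifit2 and Trim25 fell by 0.77 and 0.65 on the log2 scale. Trim30d had 0 CPM in 5 of 6 C3Hn:C3Hmt libraries and 0.0823 CPM in the other, against 0.523, 1.00 and 1.40 CPM in C57n:C3Hmt, and belongs to a cluster of close copies. The DNA sensor relative Ifi204 had 2.10, 2.85 and 4.33 CPM in C3Hn:C3Hmt and 1.15, 1.36 and 1.88 CPM in C57n:C3Hmt (1.11 ± 0.232 SE, adjusted p = 0.000841), and Ifi202b, of the same cluster, had 12 to 56 counts in C3Hn:C3Hmt and 0 in all 6 C57n:C3Hmt libraries, at least 59.8-fold higher against a floor of 3 counts over the group. With C57 mitochondria 24 of the 42 were lower and 1 higher; for 0 of the 42 did the test of the difference pass.

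Some matrix genes and fibroblast markers were higher. Of 39 extracellular matrix genes, 11 were higher (28.2%, against 10.6% of all genes) and 0 lower, with a median log2 fold change of 0.55, and 4 of 10 fibroblast markers were higher. The lists share 6 genes, and 3 of the 4 called fibroblast markers, Col1a1, Col1a2 and Lum, are also counted among the 11 matrix genes. Collagen gene Col6a3 had 10.5, 18.9 and 37.6 CPM in C3Hn:C3Hmt and 5.02, 8.79 and 12.6 CPM in C57n:C3Hmt (1.23 ± 0.264 SE, adjusted p = 0.00105), and the proteoglycan gene Lum had 14.5, 23.1 and 48.9 CPM in C3Hn:C3Hmt and 8.06, 12.7 and 16.9 CPM in C57n:C3Hmt (1.04 ± 0.205 SE, adjusted p = 0.000459). Col1a1 had 16.5, 23.5 and 77.4 CPM in C3Hn:C3Hmt and 9.89, 18.0 and 21.8 CPM in C57n:C3Hmt (0.85 ± 0.291 SE, adjusted p = 0.0394). Groups overlapped in all 3, and the highest value of each was C3Hn:C3Hmt replicate 23. Without that library the Col1a1 call was lost (log2 fold change 0.35, adjusted p = 0.248), 5 of 39 matrix genes and 1 of 10 fibroblast markers were higher, and Col6a3 and Lum were still called (adjusted p = 0.00433 and 0.000877). Leaving out another single library gave 5 matrix genes without C57n:C3Hmt replicate 10, 18 without C3Hn:C3Hmt replicate 22, and 7 without each of C57n:C3Hmt replicates 7 and 9. With the L code as a covariate 7 matrix genes and 1 fibroblast marker were higher. These counts were 6 and 2 without the L8 libraries, and 7 and 1 in the fit of the 12 libraries alone. With C57 mitochondria 0 matrix genes were higher and 11 lower, and 0 fibroblast markers were higher and 4 lower. The part of fibroblast number in these calls was not tested.

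Structural genes of the membrane and cell junctions gave 3 higher of 32 (9.38%, near the 10.6% of all genes) and 0 lower; 5 were higher without C57n:C3Hmt replicate 10. The dystrophin-associated genes Sgca and Sgcb, whose proteins anchor the cytoskeleton to the matrix, had 206, 212 and 237 CPM in C3Hn:C3Hmt and 119, 124 and 141 CPM in C57n:C3Hmt (0.79 ± 0.0711 SE, adjusted p = 2.69e-09) and 276, 313 and 361 CPM in C3Hn:C3Hmt and 172, 216 and 231 CPM in C57n:C3Hmt (0.60 ± 0.108 SE, adjusted p = 0.000141), without overlap. Pkp2, a desmosome gene, was higher by 0.29 ± 0.0823 SE (adjusted p = 0.0133), with overlap. The Sgcb and Pkp2 calls were lost with the L code as a covariate. Immediate early genes, which also respond to cell isolation, gave 2 higher and 2 lower of 28 (7.14% each, against 10.6% and 8.78% of all genes). The number higher was 1 without C3Hn:C3Hmt replicate 23 or C57n:C3Hmt replicate 11, 5 without C3Hn:C3Hmt replicate 24, 4 without C57n:C3Hmt replicate 10, and 7 with the L code as a covariate. Nr4a1 had 76.6, 149 and 206 CPM in C3Hn:C3Hmt and 53.5, 66.8 and 86.3 CPM in C57n:C3Hmt (1.05 ± 0.309 SE, adjusted p = 0.016) and its groups overlapped, while Fos (0.14 ± 0.366 SE, adjusted p = 0.842) and the heat shock gene Hspa1a (1.30 ± 0.568 SE, adjusted p = 0.115) were not called.

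The nuclear contrasts with C3H and with C57 mitochondria came from 1 fit of 24 libraries, with a common filter, scaling and estimate of spread. The second contrast used libraries that share none with the first. There 4272 genes (31.9%) were called, 2124 higher (15.9%) and 2148 lower (16%) in C3Hn:C57mt than in C57n:C57mt. In 1866 genes the call was the same in both, 71.8% of the calls with C3H mitochondria and 43.7% of those with C57 mitochondria, and 8 genes were called in opposite directions. The sign was the same for 93.5% of the genes called with C3H mitochondria and for 68.6% of all genes tested. Of genes called at 4-fold or more, 274 of 282 had the same call, and of those at 2-fold or more, 673 of 774. All 24 of the genes named for the largest changes were among them. Myh7 had a log2 fold change of 4.62 with C3H mitochondria and 5.37 with C57 mitochondria, Acta1 had 2.30 and 2.04, and Nppa 1.73 and 1.00.

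Whether the nuclear difference was unlike with C3H and with C57 mitochondria was tested as the difference between the 2 differences. The same contrast sets the 2 wild-type groups against the 2 exchanged groups. Dependence on the mitochondria and an effect of the exchange therefore cannot be told apart in it. By edgeR's quasi-likelihood test 0 of 13395 genes passed the adjusted threshold, 2188 (16.3%) had an unadjusted p under 0.05, and DESeq2 called 332. The smallest adjusted p, 0.063, was that of Dpep1, a membrane dipeptidase gene, whose log2 fold change was 0.0060 ± 0.185 SE with C3H mitochondria and -1.44 with C57 mitochondria. Leaving out 1 library gave 0 to 9 calls. Cyfip2 had the lowest unadjusted p among the named genes (0.000125, adjusted p = 0.0817), with -3.42 with C3H mitochondria and -2.57 with C57 mitochondria. By this test none of the differences named above was shown to be particular to C3H mitochondria, which does not show that they were equal.

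**Figure D5:**
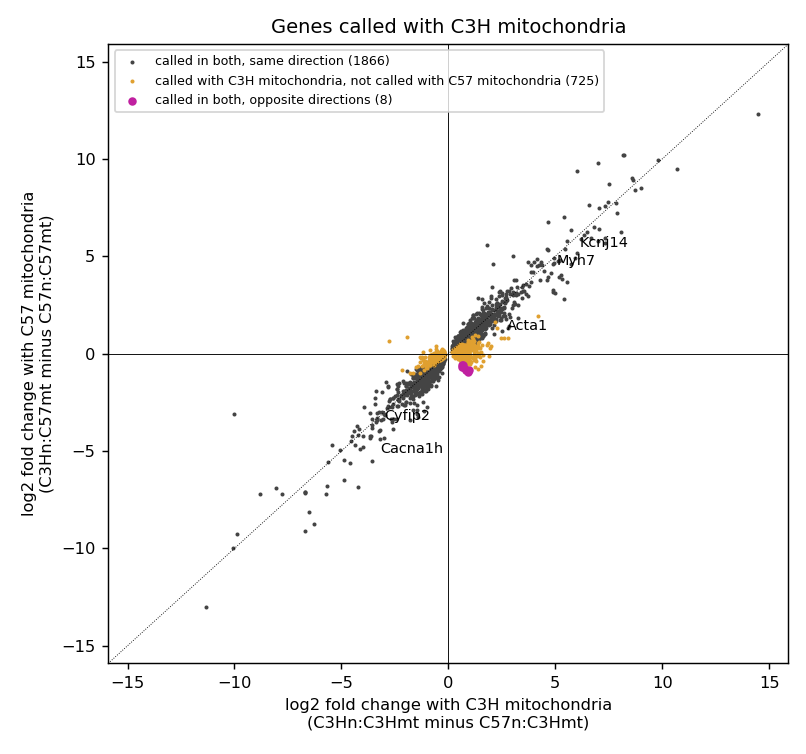
Each point is 1 of the 2599 genes called with C3H mitochondria, with its log2 fold change there on the x axis and its log2 fold change with C57 mitochondria on the y axis; the dotted line marks equal values. The 1866 genes called in both in the same direction are in dark grey, the 725 not called with C57 mitochondria in orange and the 8 called in opposite directions in magenta. The largest differences lie along the dotted line.

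In the sham libraries whose titles name a surgery, with 3 per group, the same contrast gave 3 calls when groups were taken from the genotype label and 1129 when the title's first word was read as the nucleus. Under the second reading 812 of the 2599 calls were shared in the same direction and 91.6% of those tested there kept their sign, among them Myh7 (2.74, adjusted p = 0.00545) and Acta1 (1.77, adjusted p = 0.0158). Of the 24 genes with the largest changes 23 were called in the same direction. Under that reading 0 matrix genes were higher, 2 ER genes were lower and Nr4a1 had the opposite sign (-1.42, adjusted p = 0.00917).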

How the data were processed

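RNA of isolated mouse cardiomyocytes was measured in 48 libraries, of which the 24 with no surgery word in the title were fitted. The authors deposited expected counts made with RSEM, without normalization, for 30743 gene symbols; every row named a gene (0 unnamed) and 0 columns belonged to other samples; 13.9% of values were not whole. Per the submitters' processing notes the tools were CASAVA 1.8.2, Bowtie and RSEM 1.2.0 with the build mm9, while the labels' protocols describe mapping by the sequencing provider's own algorithm. Which made the table is not settled, and the effect of C3H mismatches to a C57BL/6J-derived build on the counts was not tested. RSEM divides reads among near-identical genes, so values of such copies are uncertain.

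Expected counts were rounded and analysed in R 4.3.3 with edgeR 4.0.16: TMM, filterByExpr on the groups, 4 group means over 24 libraries, the quasi-likelihood F test, and Benjamini-Hochberg adjustment over all 13395 genes at 0.05. An SE is the log2 fold change divided by the square root of F. Levels are TMM-scaled CPM, not per length; log2 CPM has a prior count of 2. Among pairs of libraries within C3Hn:C3Hmt or within C57n:C3Hmt, the closest differed by a chi-square per degree of freedom of 3.86. No such pair therefore differed by counting error alone. Whether any libraries came from the same animal cannot be told from this comparison, and no other pairs were compared. The test was checked on simulated data.

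Groups came from titles. Named were the 12 genes per direction with the largest change (called, groups apart, mean log2 CPM at least 3, predicted, clone, Rik and pseudogene symbols skipped), up to 4 called members of each of 21 lists, and Nnt, Nppa, Nppb, Myh6, Myh7, Acta1, Kcnj14, Glo1, H2-Ea-ps, Cytb, Cox2 and Atpase6. Some genes that this rule chose are not reported here. Other list members, neighbours and silent genes were named after their values were seen. The comparison, lists and 10 marker lists were chosen with earlier results of these data known. Alternatives were DESeq2 1.42.0, its size factors, no count filter, a mean log2 CPM of at least 1, the 12 libraries alone, the L code as a covariate, no mitochondrial transcripts or Rn45s, each library left out, no L8 libraries, and the sham libraries of the other 24. Promoter sequences are from RefSeq; gene order is from a RefSeq gene table of another build, used for neighbours only.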

Additional observations from a re-analysis of the deposited data

Results flagged for a closer look

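In 192 sets of 6 libraries (each named gene and marker list in each group), the distance of the highest or lowest library from its nearest neighbour, as a share of the group's range, was compared with Dixon's critical value for 6 samples. Chance alone passes it in about 1 in 20 sets, and 12 passed. C3Hn:C3Hmt replicate 23 accounted for 6 of them. It was highest in the mean log2 CPM of the fibroblast markers (share of the range 0.639; 5.95, against 4.28 to 4.88 in the other 5 libraries), in Col1a1 (0.703), in Col5a1 (0.716) and in the matrix gene Emilin2 (0.772; 3.88, against 2.96 to 3.17), and lowest in Tfam (0.865; 5.16, against 5.50 to 5.55) and Glo1 (0.680; 7.28, against 7.71 to 7.91). In Emilin2 and Glo1 this library lay nearest to the C57n:C3Hmt libraries without reaching them. C3Hn:C3Hmt replicate 19 was highest in Myl4 (0.693; 4.49, against 1.05 to 2.11), and replicate 21 in H2-Eb1 (0.688; 1.63, against 0.17 to 0.63) and in Trim30d (1, since the other 5 libraries had no counts). In C57n:C3Hmt, replicate 10 was lowest in the fibroblast markers (0.700; 3.83, against 4.43 to 4.68) and in Tmprss13 (0.656; 0.48, against 1.41 to 1.89), and replicate 7 was highest in Mrpl35 (0.641; 4.90, against 4.59 to 4.70). The part of any of these libraries in the results of other genes is given beside those results.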

How the results depend on the processing

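The alternatives run on the same libraries kept the sign of every one of the 2599 calls that they tested, except the L code as a covariate, which kept 2581 (99.3%). That covariate gave 1191 calls (696 higher, 495 lower), 2 calls for the difference between the nuclear differences and 1075 with C57 mitochondria; since the code is nested in the groups, its cause was not tested. DESeq2 gave 332 calls for that difference, and its cause was not tested either. Leaving out each library in turn gave 2278 to 2708 calls, 1235 to 1491 higher, 1043 to 1217 lower, 4192 to 4541 with C57 mitochondria, and 0 to 9 for the difference (9 without C3Hn:C3Hmt replicate 19, 6 without replicate 20 and 3 without replicate 22). The sham libraries with a surgery word gave 3 calls (1 higher, 2 lower) by genotype label and, chosen after seeing the data, 1129 (584 higher, 545 lower) by title prefix; the cause was not tested. Also added after seeing the data were the fit without the mitochondrial transcripts alone and the marker counts without replicate 23. Settings that leave out the mitochondrial transcripts give no value for Cytb, Cox2 and Atpase6. No paired analysis was possible because the groups share no replicate numbers. Counting error limits genes under about 1 CPM, near the filter on low counts.

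Of 86 named genes, 81 kept their sign in the 21 alternatives on these libraries. Reversed with the L code as a covariate were Pdk4 (-0.32 on the log2 scale), Nnt (-0.14), Cox2 (0.23) and Atpase6 (0.48), and without the L8 libraries Nnt (-0.0055). Nppb, not called in any, ran from -0.023 to 0.18 when 1 library was left out: it was -0.0036 without C3Hn:C3Hmt replicate 21, -0.0018 without C57n:C3Hmt replicate 12 and -0.023 without replicate 9. By title prefix in the other sham libraries, 11 named genes reversed: Myl4 -0.11, Lcn2 -0.40, Nr4a3 -0.80, Myc 0.29, Nr4a1 -1.42, Bhlhe40 -0.29, Col6a3 -0.12, Lum -0.15, Col5a1 -0.35, Col1a1 -0.52 and Myh6 0.10. By genotype label there, where the nucleus named by label and title differ, 54 reversed and none was called. These were, among the genes with the largest changes, Kcnj14 -0.14, Myh7 -0.049, Baiap2l1 -0.21, Myl1 -0.72, Ephb1 -0.041, Tmprss13 -0.47, Adamts13 -0.033, Acta1 -0.021, Cyfip2 0.17, Il15 0.33, Tnni3k 0.21, Art4 0.61, Lgr6 0.045, Tmem150c 0.077 and Mgst1 0.58. Among mitochondrial and metabolic genes they were Cytb 0.25, Cox2 0.19, Atpase6 0.20, Mrpl20 -0.14, Mrps34 -0.21, Tfb1m -0.39, Tfam -0.00050, Lpl 0.059, Pdk4 -0.22, Pgam2 -0.17, Slc2a1 0.038, Hk1 -0.13, Bcat2 -0.099, Glo1 -0.19, Glrx -0.085 and Nnt -0.076. Contractile, channel and structural genes were Myl4 -0.14, Nppa -0.46, Nppb -0.16, Myh6 0.11, Lcn2 -0.17, Cacna1h 0.034, Casq1 -0.12, Kcne1 -1.06, Kcna4 0.49, Sgca -0.023, Sgcb -0.037, Col6a3 -0.039, Lum -0.091 and Col1a1 -0.16. The others were Trim30d 0.0064, Rsad2 0.72, H2-Q2 -0.083, Nr4a3 -0.91, Myc 0.81, Nr4a1 -1.36, Ier3 0.19, Aldh18a1 -0.0037 and Bhlhe40 -0.38.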

Other observations

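Some genes were silent under one nucleus and measured in every library of the other; they were chosen after their values were seen, as genes with 0 counts in all 6 libraries of one group and at least 10 in each of the other. In C57n:C3Hmt 8 genes were silent, of which 4 have full gene names: the kallikrein gene Klk1b22 (36 to 76 counts in C3Hn:C3Hmt, at least 107-fold higher), Ifi202b (12 to 56 counts, at least 59.8-fold higher), the class I gene H2-Bl and Zf12 (each at least 40.6-fold higher), with bounds from a floor of 3 counts over the group. Olfr1033, an olfactory receptor gene, and the immunoglobulin gene Ighg were among 5 genes silent in C3Hn:C3Hmt, with 64 to 147 and 72 to 120 counts in C57n:C3Hmt, at least 233-fold and 201-fold lower in C3Hn:C3Hmt. Lymphocyte markers had at most 9 counts in any library. These genes belong to families of close copies or lie at polymorphic loci, and whether C3H reads were lost or gained there in mapping to a C57BL/6J-derived build was not tested.

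Called genes were also set out by their order in the genome. In the gene order of a RefSeq table, matched for 12765 of the 13395 genes, 1078 of 2455 called genes (43.9%) had a called gene next to them, as had 3249 of 10310 genes not called (31.5%) and 123 of 234 called at 4-fold or more (52.6%). Of 12743 adjacent pairs, 622 were both called, and 378 of these (60.8%) had one direction. Runs of at least 4 adjacent genes called one way numbered 10, 6 higher and 4 lower in C3Hn:C3Hmt. The longest held 5 genes: Clec16a, A630055G03Rik, Litaf, Gm4262 and Snn (higher), Kcna4, Mettl15, Kif18a, Bdnf and Lin7c (lower), and Prkrir, Wnt11, Uvrag, Dgat2 and Mtap6 (lower). One lower run of 4 held Rsad2 beside Cmpk2, Dcdc2c and Colec11. Neighbouring genes are not independent, and no test was made.

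Of 12 tested genes with known allele differences among inbred strains, 4 were higher (33.3%, against 10.6% of all genes): Glo1, H2-Ea-ps, Ifi202b and Wdfy1. The 1 lower (8.33%, near the 8.78% of all genes) was the retrovirus restriction gene Apobec3 (-0.96 ± 0.245 SE, adjusted p = 0.0057 by edgeR). With the L code as a covariate 3 of the 12 were higher and 0 lower, and H2-Ea-ps and Apobec3 lost their calls. Of 18 clock genes 1 was higher (5.56%, against 10.6% of all genes) and 0 lower (against 8.78%). It was Bhlhe40 (0.48 ± 0.142 SE, adjusted p = 0.0159 by edgeR). Spna1, the erythrocyte spectrin gene, was 6.81-fold lower, with 2.06, 2.55 and 3.65 CPM in C3Hn:C3Hmt and 14.0, 17.6 and 27.0 CPM in C57n:C3Hmt (-2.77 ± 0.216 SE, adjusted p = 1.56e-10), while the other 3 tested erythrocyte markers, the globin genes among them, were not called.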
